A study of Drosophila melanogaster with 46 samples.

Results

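Chromosome 4 of Drosophila melanogaster, the small dot chromosome, carried 174 of the 6004 PSC peaks and 106 of the 2209 Su(z)12 peaks of the merged eye disc lists. Peaks were selected on the chromosome that the authors' peak lists give, and genes on a dm6 chromosome 4 position together with a row in a fold change table. The annotation placed 114 genes there, 80 of them protein-coding, and 79 of the 114 had a row in either table. Whether a peak was called at all was a measured value, so the peak counts that chose the members are a description and were not tested. The weakest chromosome 4 peaks inside the authors' limit had a -log10 q of 3.025 for PSC and 3.007 for Su(z)12, and peaks below that limit were not used here.

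The study profiled Polycomb binding, expression and genome folding during fly development in 46 samples, of which 14 are behind the files used here. All of them came from eye discs of wandering L3 larvae, the epithelial sacs from which the fly's eye and antenna grow, and each replicate pooled many discs. ChIP-seq of PSC and of Su(z)12 had 2 replicates each, with 500 discs of the strain W1118 Oregon-R per replicate and polyclonal rabbit antibodies. RNA-seq covered discs of the PCxt109 mutant (library title PcXT109 FRT2A, 2 replicates), ph RNAi discs (BL 64095 x VDRC50028, 4 replicates) and white RNAi discs (BL 64095 x BL33623, 4 replicates), with about 150 discs per replicate. The labels name neither the control of the Pc mutant, nor the share of mutant cells in its discs, nor the promoter that drives the RNA interference, and both RNA interference groups share the stock BL 64095. The fold change tables hold no value per sample, so each gene is given by the authors' log2 fold change and its standard error.

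PSC belongs to PRC1, the Polycomb complex that also holds Pc and Ph. Su(z)12 belongs to PRC2, the Polycomb complex that methylates lysine 27 of histone H3, and both complexes are known for keeping developmental regulators silent outside the cells that need them. Chromosome 4 is short and rich in repeats, is coated by the protein Pof, and combines marks of heterochromatin with genes that are actively transcribed. Its genes include several regulators of eye development, among them both fly homologues of Pax6.

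In the whole series, the targeted genes were lower in the discs that should lack them. In the authors' deposited table for the Pc mutant, Pc had a log2 fold change of -1.64 ± 0.41 (SE; DESeq2 adjusted p = 0.00134). In the authors' deposited table for ph RNAi, ph-p had -0.80 ± 0.04 (DESeq2 adjusted p = 1.11e-88) and ph-d -0.66 ± 0.05 (DESeq2 adjusted p = 6.89e-42). The 9 known regulators of chromosome 4 chromatin on other chromosomes, such as Pof and the histone methyltransferase egg, lay between -0.20 and 0.22 in the authors' deposited table for ph RNAi. Of these, 3 were higher (33.33%) and 2 lower (22.22%), against 31.1% higher and 34.9% lower over all tested genes. None of those 9 was called in the authors' deposited table for the Pc mutant, where 3.64% of all tested genes were higher and 6.24% lower. The sequencing depth of the libraries is unknown from these files.

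Peaks of both proteins were denser on chromosome 4 than on every other arm. Merged PSC peaks numbered 131.8 per Mb on chromosome 4, against 43.96 per Mb on the other 5 arms together, where single arms ran between 38.23 on 3L and 52.99 on 2L. Su(z)12 peaks numbered 80.32 per Mb on chromosome 4, against 15.84 per Mb on the other 5 arms, with 9.516 on X as the lowest and 22.98 on 3R as the highest. PSC peaks covered 7.607% of chromosome 4 up to its last annotated or bound base, against 2.044% of the other arms, and Su(z)12 peaks covered 2.802% of chromosome 4, against 0.6906% of the other arms.

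The higher density was present in each replicate list, although the lists differed in length. PSC replicate 1 had 113.7 peaks per Mb on chromosome 4 and 40.16 on the other arms, and replicate 2 had 73.5 on chromosome 4 and 23.53 on the other arms. Su(z)12 replicate 1 had 50.01 peaks per Mb on chromosome 4 and 10.32 on the other arms, and replicate 2 had 31.83 on chromosome 4 and 8.709 on the other arms. The merged lists contain the replicates' data, so these lists are no independent check of the rule. Of the merged chromosome 4 PSC peaks, 82 overlapped a peak in both replicate lists (47.13%, against 43.04% on the other arms). Another 59 overlapped a peak in one list and 33 in neither (18.97%, against 15.23% on the other arms). Of the chromosome 4 Su(z)12 peaks, 34 were in both replicate lists (32.08%, against 36.97% on the other arms). Another 31 were in one list and 41 in neither (38.68%, against 30.01% in neither on the other arms).

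**Figure D1:**
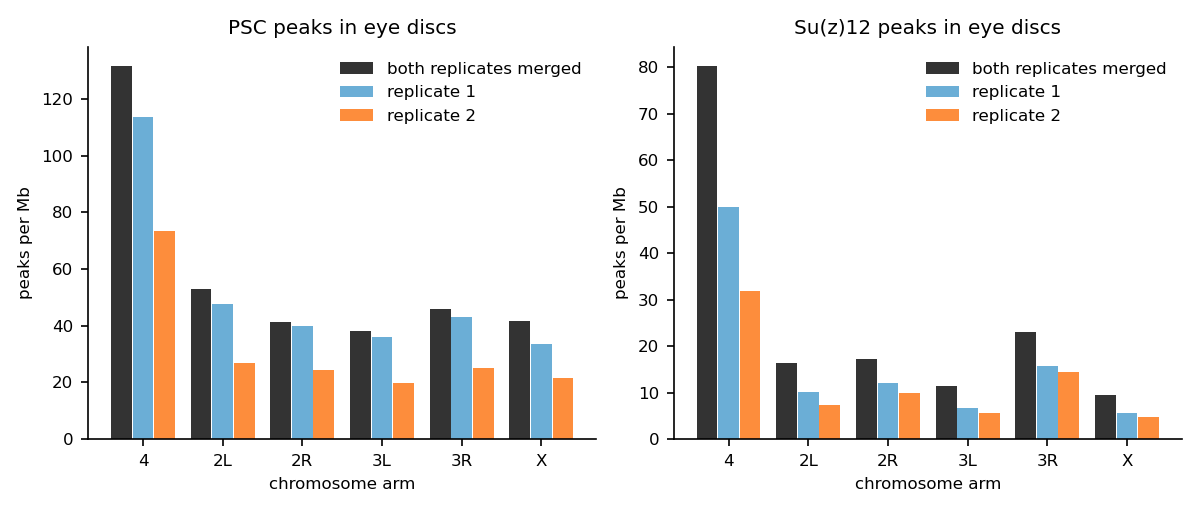
Peaks per Mb of each chromosome arm for PSC (left) and Su(z)12 (right) in eye discs, from the merged list and each replicate list. Chromosome 4 is the first group of bars in both panels and stands above every other arm in all 6 lists, at 131.8 merged PSC peaks and 80.32 merged Su(z)12 peaks per Mb.

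The median merged peak of chromosome 4 was about as tall as elsewhere, while a larger share of peaks was strong. A peak's fold is the authors' enrichment at the summit over the local background. The median fold was 1.979 on chromosome 4 and 1.968 on the other arms for PSC, and 1.966 on chromosome 4 and 1.984 on the other arms for Su(z)12. In the single replicate lists the medians of chromosome 4 were higher. They were 2.365 (replicate 1) and 3.05 (replicate 2) on chromosome 4, against 2.242 and 2.818 on the other arms, for PSC, and 2.56 and 3.225 on chromosome 4, against 2.3 and 2.658, for Su(z)12. Folds of at least 3 were found in 27 chromosome 4 PSC peaks (15.52%), against 440 PSC peaks (7.554%) of the other arms, and in 14 chromosome 4 Su(z)12 peaks (13.21%), against 97 (4.621%) of the other arms. All 27 of these PSC peaks and all 14 of these Su(z)12 peaks on chromosome 4 were present in both replicates. On the other arms, 439 of the 440 such PSC peaks and all 97 such Su(z)12 peaks were too. The median width was 376.5 bp on chromosome 4 and 326.0 bp on the other arms for PSC, and 305.5 bp on chromosome 4 and 293.0 bp on the other arms for Su(z)12. The median -log10 q was lower on chromosome 4 in both lists, at 12.07 against 14.86 on the other arms for PSC and 10.55 against 12.14 for Su(z)12.

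PSC peaks coincided with Su(z)12 more often on chromosome 4. A Su(z)12 peak overlapped 80 of the 174 chromosome 4 PSC peaks by at least 1 bp, or 45.98% (exact 95% interval 38.41 to 53.68, for counting error alone). The share on the other 5 arms was 24.81% (23.7 to 25.94), with single arms between 17.97% on X and 30.52% on 3R. In the other direction, 88 of the 106 chromosome 4 Su(z)12 peaks met a PSC peak, or 83.02% (74.5 to 89.61), against 76.08% (74.2 to 77.9) on the other arms, where 3R had 62.82% and X had 90.18%. The Su(z)12 share of chromosome 4 thus lay inside the range of the single arms, and the PSC share lay above it. Su(z)12 peaks were also more numerous relative to PSC peaks there, 106 to 174, against 2099 to 5825 on the other arms. The PSC share depends on these counts, and no expected share was computed. Many peaks lay in the same gene, so they are not independent units.

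On chromosome 4, as on the other arms, PSC peaks with Su(z)12 had larger folds and were found in both replicates more often than those without. The median fold of the co-occupied chromosome 4 peaks was 2.579, against 1.845 for the 94 chromosome 4 PSC peaks without Su(z)12, and the other arms had 2.43 with and 1.879 without Su(z)12. The median width of the co-occupied chromosome 4 peaks was 409.5 bp, against 342.0 bp without Su(z)12. All 27 chromosome 4 PSC peaks with a fold of at least 3 overlapped Su(z)12, whereas on the other arms 132 of the 440 such peaks did not. Both replicate lists held 55 of the 80 co-occupied peaks (68.75%) and 27 of the 94 others (28.72%) on chromosome 4, and 71.42% and 33.68% of these classes on the other arms. None of the 18 chromosome 4 Su(z)12 peaks without PSC was found in both replicates, against 17.53% of such peaks on the other arms. Single arms ran from 4.545% on X (1 of 22 peaks) and 6.78% on 2L to 21.9% on 3R.

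Strong peaks sat close to the ends of genes, on chromosome 4 as on the other arms. The annotation used here gives no strand, so a gene end can be a start or a stop. Of the 27 PSC peaks with a fold of at least 3, 21 had their summit within 1000 bp of a gene end (77.78%), against 74.09% of such peaks on the other arms, where 2L, 2R and 3L had larger shares than chromosome 4. Within 200 bp lay 20 of the 27 (74.07%), against 59.32% on the other arms. Of the 14 Su(z)12 peaks with a fold of at least 3 on chromosome 4, 10 lay within 1000 bp of a gene end (71.43%), against 64.95% on the other arms. Single arms had larger shares on X (90.91%) and 2R (80.0%) and the same share on 3L. Within 200 bp lay 9 of the 14 (64.29%), against 42.27% on the other arms together and 63.64% on X. Among all chromosome 4 PSC peaks the order was the opposite, with 28.74% within 200 bp, against 39.09% on the other arms. Of the 94 chromosome 4 PSC peaks that lacked Su(z)12, 14 (14.89%) were within 200 bp of a gene end, against 38.68% of such peaks on the other arms. Of the 80 co-occupied ones, 36 (45.0%) were, against 40.35% on the other arms. The limit of 200 bp was chosen after the distances had been seen.

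The 5 PSC peaks of chromosome 4 with the largest folds show both kinds of position, and all 5 were found in both replicates and overlapped Su(z)12 (coordinates in dm6). The first, at chr4:979375-980362, had a fold of 4.283 and lay between fuss and toy, 1558 bp from the nearer end of fuss. The second, at chr4:307878-308293, had a fold of 4.233 and its summit 52 bp from an end of Rad23, which encodes a DNA repair factor. The third, at chr4:1230561-1230970, had a fold of 4.007 and lay 33 bp from an end of the kinase gene Dyrk3, next to Cadps. The remaining peaks were at chr4:131936-132319 (fold 3.856, 80 bp from an end of anne) and at chr4:835392-836819 (fold 3.843, 1031 bp from the forkhead gene fd102C).

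The 5 Su(z)12 peaks with the largest folds on chromosome 4 shared 2 of these places. The largest, at chr4:424648-425017, had a fold of 4.26 and lay in the interval of 41351 bp between dati and lgs, 1225 bp from the noncoding gene lncRNA:CR43437. That interval held 10 PSC and 7 Su(z)12 summits, of which 5 and 3 belonged to peaks found in both replicates. The second, at chr4:979616-980271, had a fold of 4.17 and coincided with the first PSC peak between fuss and toy. The third, at chr4:866900-867322, had a fold of 3.777 and lay 67 bp from an end of Gyf. The peak at chr4:697464-697834 had a fold of 3.453 and lay 48 bp from an end of ey, and the peak at chr4:307920-308196 had a fold of 3.378 and lay 31 bp from an end of Rad23.

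Seen gene by gene, binding by both proteins was the rule on chromosome 4 and the exception elsewhere. A gene was counted as bound when a peak lay in it or within 1000 bp of it. On chromosome 4, both proteins were at 57 of the 80 protein-coding genes (71.25%), PSC without Su(z)12 at 11 (13.75%), Su(z)12 without PSC at 2 (2.5%) and no peak at 10 (12.5%). On the other 5 arms, 9.291% of 13841 genes had both, 20.68% PSC alone, 0.7225% Su(z)12 alone and 69.3% neither. With peaks restricted to those found in both replicates, 36 chromosome 4 genes still had both proteins (45.0%), against 3.938% of the genes of the other arms. Neighbours can share a peak, since 23 of the 174 PSC peaks and 15 of the 106 Su(z)12 peaks lay in the windows of more than 1 protein-coding gene.

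The share of co-occupied genes was larger on chromosome 4 in every class of gene length and of mean count. The median protein-coding gene was 10090 bp long on chromosome 4 and 2151 bp on the other arms. Both proteins were present at 66.67% of the 18 chromosome 4 genes under 5000 bp, against 5.959% on the other arms, at 67.35% of the 49 genes of 5000 to 20000 bp, against 15.5%, and at 92.31% of the 13 longer genes, against 29.03%. Among the genes tested in the ph table, co-occupancy was more frequent at higher mean counts on chromosome 4 and on the other 5 arms together. It reached 29 of the 34 chromosome 4 genes with a mean normalized count of at least 5000 (85.29%), against 23.13% on the other arms. It was lowest at 4 of the 10 chromosome 4 genes under a mean count of 100 (40.0%), against 5.119% on the other arms. These classes were chosen after the data had been seen.

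**Figure D2:**
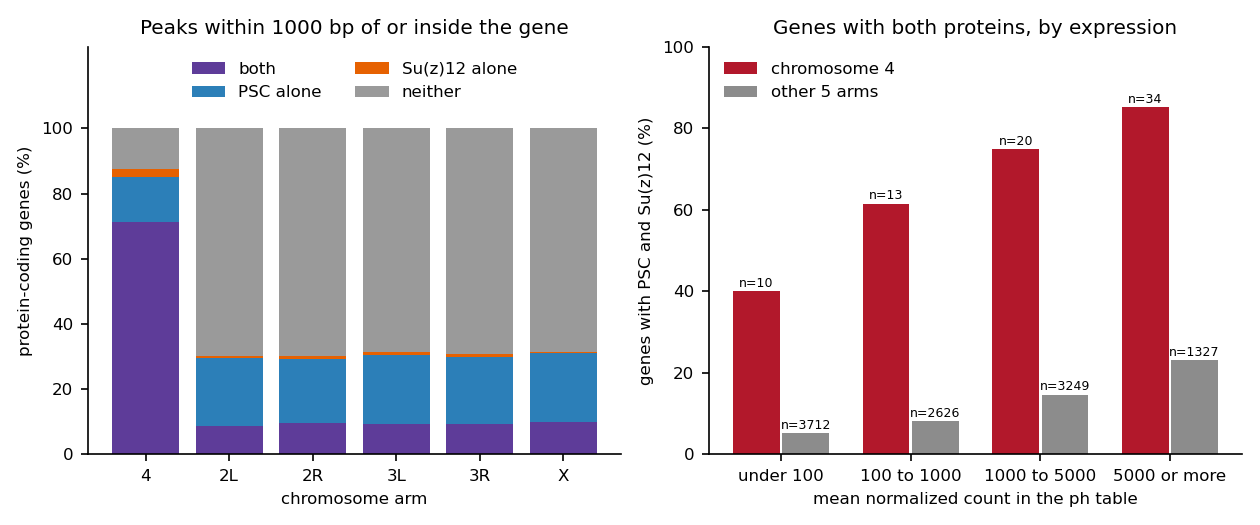
Left, share of protein-coding genes of each arm with a PSC and a Su(z)12 peak in the gene or within 1000 bp, with PSC alone, with Su(z)12 alone, or with neither. Right, share of tested protein-coding genes with both proteins by mean normalized count in the ph table, for chromosome 4 and the other 5 arms (n, number of genes). Both proteins were at 71.25% of chromosome 4 genes, and chromosome 4 is the higher bar in each of the 4 count classes.

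Of the 8 tested genes with neither protein, 3 had a mean count under 100 in the ph table, 3 from 100 to 1000 and 2 from 1000 to 5000. They included onecut, Syt7, dpr7 and Gat, which encode a homeobox factor, a synaptotagmin, an immunoglobulin surface protein and a GABA transporter. NfI, a nuclear factor I homologue, and the glutamate receptor gene mGluR had Su(z)12 alone, with folds of 1.689 and 1.853. Neither of these peaks was found in a replicate list. The Hedgehog effector ci and the Polycomb gene pho had PSC alone. At pho, which encodes the DNA-binding subunit of the PhoRC complex, the single PSC peak covered 629 bp with a fold of 2.927 and was found in both replicates.

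Peak clusters were found at 4 transcription factor genes. The 15 transcription factor genes of chromosome 4 held 74 of the 174 PSC peaks (42.53%) and 43 of the 106 Su(z)12 peaks (40.57%) in or near them, and 56.11% of the PSC-covered bases. These genes were long, with a median of 18198 bp against 10090 bp over all 80 protein-coding genes of the chromosome. No matching share was computed for the other arms. The 4 genes with more than 5 PSC peaks were all in this list, while the other 65 protein-coding genes had a median of 1.0 PSC peak and at most 5. At each of the 4, fewer peaks were found in both replicates than in the merged list.

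The Pax6 gene ey (chr4:697689-721173) had 17 PSC and 4 Su(z)12 peaks, and PSC covered 14969 bp, or 58.7% of the gene and its 1000 bp flanks. Of these, 8 PSC and 2 Su(z)12 peaks were found in both replicates. Inside ey lay the second widest PSC peak of the chromosome, of 5369 bp, with a fold of 2.188 and no Su(z)12. The other Pax6 gene, toy (chr4:989725-1007922), had 4 PSC and 1 Su(z)12 peaks, and its own end carried a PSC peak of 2854 bp. The interval of 11235 bp between fuss and toy held 10 PSC summits and 2 Su(z)12 summits, of which 1 of each protein is already counted at toy.

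The Pax2 homologue sv (chr4:1088798-1113317) had 16 PSC and 10 Su(z)12 peaks, 4 and 1 of them in both replicates. The zinc-finger homeobox gene zfh2 (chr4:501810-540874) had 13 PSC and 11 Su(z)12 peaks, 5 and 2 of them in both replicates. Its body held the widest PSC peak of chromosome 4, 5984 bp long, and PSC covered 34.1% of its window. Sox102F (chr4:800436-834393), a SoxD factor gene, had 12 PSC and 7 Su(z)12 peaks, and the neighbouring fd102C (chr4:836986-844529) had 3 PSC and 4 Su(z)12 peaks. The remaining transcription factor genes were much sparser. Pan, the TCF of Wnt signalling, had 3 PSC and 2 Su(z)12 peaks, dati had 2 PSC peaks and onecut had no peak of either protein.

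**Figure D3:**
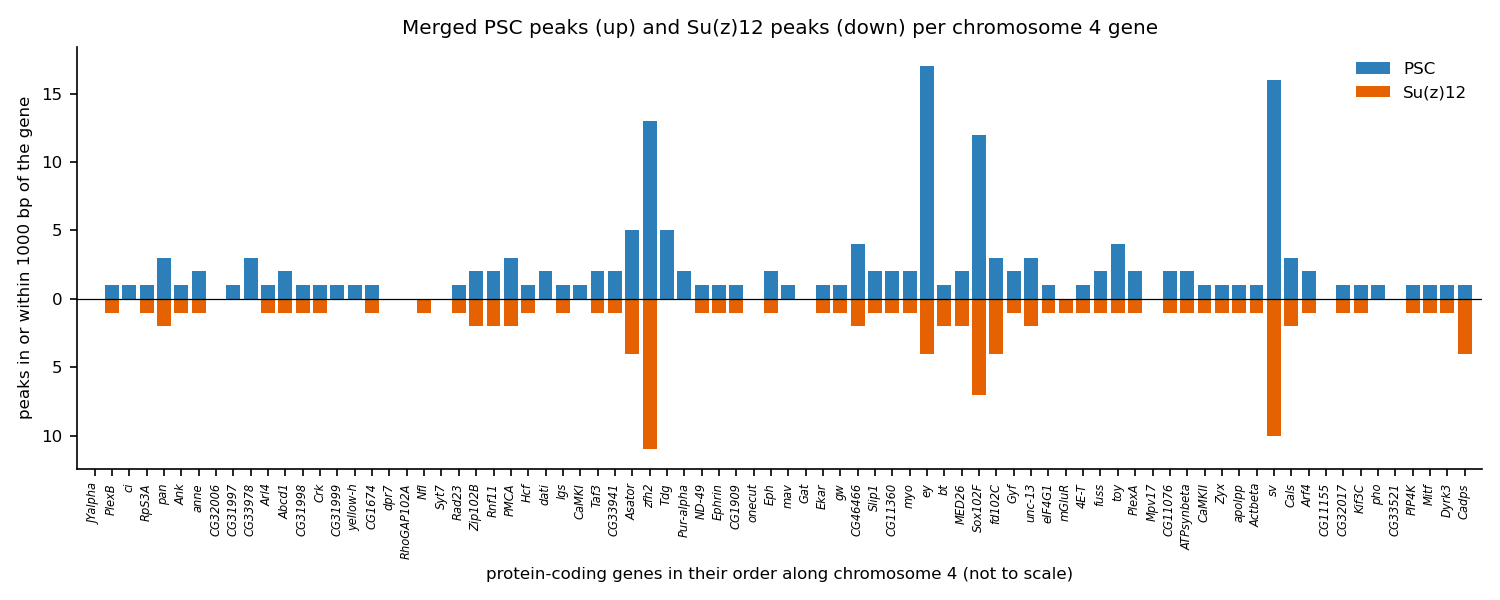
Number of merged PSC peaks (upward bars) and Su(z)12 peaks (downward bars) in or within 1000 bp of each of the 80 protein-coding genes of chromosome 4, in their order along the chromosome. The tall clusters are at zfh2, ey, Sox102F and sv, with 13, 17, 12 and 16 PSC peaks, and the remaining genes have 0 to 5.

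After ph RNAi, most chromosome 4 genes were lower. White RNAi discs are the matching control group by the labels, although the table itself names no control. In the authors' deposited table for ph RNAi, 60 of the 77 tested chromosome 4 genes were called lower (77.92%) and 9 higher (11.69%) at a DESeq2 adjusted p under 0.05. Over all 11009 tested genes, 34.9% were called lower and 31.1% higher. On the other 5 arms 34.62% were lower and 31.21% higher, and the single arms ran from 33.75% lower on X to 36.52% on 2L. The median log2 fold change in the authors' deposited table for ph RNAi was -0.36 on chromosome 4 and -0.06 on the other arms. Centring each table on the median of its genes left 71.43% of chromosome 4 genes lower and 14.29% higher, against 31.79% lower and 34.43% higher on the other arms. In whole discs, fewer cells of a type and less RNA per cell cannot be told apart.

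The excess was made of moderate as well as large falls. Called falls of less than 1 on the log2 scale took in 36 chromosome 4 genes (46.75%), against 15.27% of genes on the other arms in the authors' deposited table. Falls of at least 1 took in 24 chromosome 4 genes (31.17%), against 19.35%. By contrast, 1 chromosome 4 gene was higher by at least 1 (1.299%), against 5.071%. Chromosome 4 genes were more strongly expressed, with a median mean normalized count of 4275 against 610.0 on the other arms, and their median standard error was smaller, at 0.0614 against 0.0992.

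The share of lower genes was larger on chromosome 4 in every class of mean count, length and binding with at least 5 genes that was looked at, all chosen after the data had been seen. By mean count in the authors' deposited table for ph RNAi, 70.0% were lower under 100, 92.31% from 100 to 1000, 90% from 1000 to 5000 and 67.65% from 5000 on. The same classes of the other arms had 30.68%, 38.52%, 34.6% and 37.98%. By length, 73.33%, 77.55% and 84.62% of short, middle and long chromosome 4 genes were lower, against 25.72%, 50.74% and 66.46% on the other arms. Among genes of 5000 to 20000 bp with a mean count of at least 1000, 26 of 34 chromosome 4 genes were lower (76.47%), against 44.84% on the other arms. Among shorter genes of that expression, 8 of 12 were lower and 4 higher on chromosome 4, against 25.53% lower and 57.66% higher on the other arms.

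**Figure D4:**
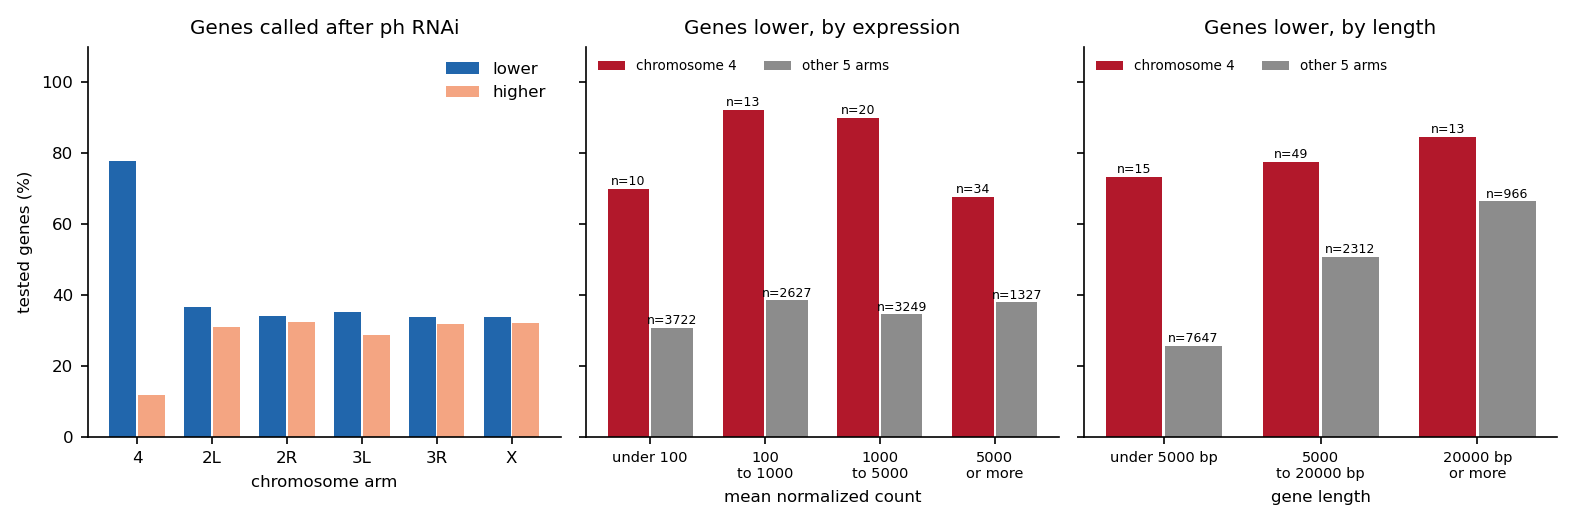
Share of tested genes called lower or higher after ph RNAi by chromosome arm (left), and share called lower by mean normalized count (middle) and by gene length (right) for chromosome 4 and the other 5 arms (n, number of genes), from the authors' deposited table. Chromosome 4 has 77.92% of genes lower and the other arms 33.75% to 36.52%, and chromosome 4 is higher in every class shown.

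Lower genes were found in every binding class of chromosome 4. In the authors' deposited table for ph RNAi, 42 of the 56 genes with both proteins were lower (75%, median -0.26), 8 of the 11 with PSC alone (72.73%) and all 8 with neither (median -4.10). The corresponding shares of the other arms were 43.48%, 39.93% and 30.84%. Of the 5 largest falls, 3 were at genes with neither protein (dpr7, onecut and CG32006) and 2 at genes with both (Ekar and Actbeta).

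Among the transcription factor genes, 9 of 15 were lower (60.0%) and 3 higher in the authors' deposited table for ph RNAi. That share was below the 77.92% lower over all tested chromosome 4 genes, and above the 34.9% over the whole table. The Pax genes were among the lower ones, with sv at -3.18 ± 0.11, toy at -3.05 ± 0.20 and ey at -2.40 ± 0.12 (DESeq2 adjusted p = 2.09e-169, 1.81e-50 and 5.97e-94). The authors' deposited table gave onecut -4.82 ± 0.56, NfI -4.23 ± 0.28 and dati -1.97 ± 0.63. Smaller called falls were those of pan at -0.55 ± 0.06, Sox102F at -0.23 ± 0.07 and the lysosomal regulator Mitf at -0.16 ± 0.04 in the authors' deposited table. Thus of the 4 genes with peak clusters, ey and sv fell by more than 2, Sox102F fell slightly, and zfh2 had -0.03 ± 0.05 and was not called in the authors' deposited table for ph RNAi.

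The one chromosome 4 gene with a large increase after ph RNAi was fd102C. Its log2 fold change in the authors' deposited table was 3.09 ± 0.71 (DESeq2 adjusted p = 3.32e-05), at a mean normalized count of 16.17, in the class under 100. It overlaps a pseudogene in the annotation, and no source used here states whether counting used the strand. The remaining higher transcription factor genes were ci at 0.14 ± 0.04 and the cofactor gene Hcf at 0.09 ± 0.04 in the authors' deposited table. The table gave pho 0.11 ± 0.06 and the Wnt cofactor gene lgs -0.04 ± 0.03, neither of them called in the authors' deposited table.

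Most eye and neuron markers on other chromosomes moved in the same direction as the Pax genes and the synaptic list of chromosome 4. Of 7 eye markers outside chromosome 4, 6 were lower and 1 higher in the authors' deposited table for ph RNAi (range -5.94 to 0.84, median -4.58), and of 7 neuron markers 6 were lower and 1 higher (range -6.29 to 0.38, median -4.33). All 7 haemocyte markers were lower (range -3.25 to -0.73), 4 of 5 glial markers were lower, and all 4 markers of disc epithelium were lower (median -0.35, range -0.87 to -0.20). Of 9 fat body markers, 0 were lower and 1 was higher (median 0.78, range -0.38 to 2.16) in the authors' deposited table for ph RNAi. Among all tested genes of that table, 34.9% were lower and 31.1% higher. The tables give no summed marker level per group, and the part of cell composition in the chromosome 4 result was not tested. Without the transcription factor, synaptic, muscle and fat body genes, a subset chosen after the data had been seen, 43 of 53 chromosome 4 genes were lower (81.13%) and 6 higher, with a median of -0.31 in the authors' deposited table. The subset still held genes with large falls, such as Actbeta at -4.85, CG32017 at -4.40 and CG11155 at -3.94. No matching subset of the other arms was formed, so it gives no answer on cell composition.

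All 7 tested genes of the chromosome 4 synaptic list were lower in the authors' deposited table for ph RNAi (range -6.02 to -0.49, median -2.05). Over all tested chromosome 4 genes the lower share was 77.92%. The kainate receptor gene Ekar had the largest fall of the chromosome, -6.02 ± 0.85 in the authors' deposited table. Next in this list came dpr7 at -4.95 ± 1.01, Syt7 at -4.26 ± 0.36, mGluR at -2.05 ± 0.41, Gat at -1.94 ± 0.26 and the secretion factor gene Cadps at -1.63 ± 0.07 in the authors' deposited table. The vesicle priming gene unc-13, which was strongly expressed, fell by less, -0.49 ± 0.08 in the authors' deposited table.

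Of the 14 signalling and guidance genes, 12 were lower (85.71%) and 1, ci, was higher in the authors' deposited table for ph RNAi (median -0.39). That share was near the 77.92% of the whole chromosome. The activin ligand gene Actbeta had -4.85 ± 0.28, RhoGAP102A -2.02 ± 0.49, and Ephrin -0.94 ± 0.05 in the authors' deposited table. The 2 other TGF-beta family ligand genes, mav and myo, had -0.59 ± 0.06 and -0.23 ± 0.06 in the authors' deposited table. Other genes of this list showed small falls in the authors' deposited table, with Zyx at -0.46, Crk at -0.42, Eph at -0.36, PlexB at -0.33, CaMKI at -0.26 and PlexA at -0.11.

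The translation and RNA list was split, with 2 of its 6 genes higher and 3 lower in the authors' deposited table for ph RNAi. Over the whole chromosome 77.92% were lower and 11.69% higher. RpS3A, a ribosomal protein gene, had 0.43 ± 0.04, and eIF4G1 0.27 ± 0.04 in the authors' deposited table for ph RNAi. The lower ones were Pur-alpha at -0.60, the miRNA effector gw at -0.25 and 4E-T at -0.18 in the authors' deposited table, while Gyf had 0.01 ± 0.03 and was not called. The DNA glycosylase gene Thd1 (Tdg in the annotation) was higher, at 0.22 ± 0.04, and so were 2 genes in none of the lists, ND-49 of respiratory complex I at 0.23 ± 0.05 and CG11076, next to ATPsynbeta, at 0.55 ± 0.06 in the authors' deposited table.

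Of the 8 metabolism and transport genes, 6 were lower by less than 1 in the authors' deposited table for ph RNAi, namely Arl4 at -0.28, PIP4K at -0.22, Arf102F at -0.15, the zinc transporter gene Zip102B at -0.14, Ank at -0.14 and the calcium pump gene PMCA at -0.12. The ATP synthase gene ATPsynbeta was higher, at 0.31 ± 0.04, in the authors' deposited table. Kif3C had -0.88 ± 0.42 and was not called in the authors' deposited table. The kinase genes Asator and Dyrk3 had -0.59 and -0.48, and Rad23 had -0.14, all called lower in the authors' deposited table. The strongest PSC peaks at these 3 genes had folds of 3.554, 4.007 and 4.233, and all 3 genes had both proteins.

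Among genes in none of these lists, CG32006, CG32017, CG11155, CG31997, yellow-h, CG1674, CG31999, CG33978 and CG1909 were lower by 1.15 to 4.76 in the authors' deposited table for ph RNAi, and CG33521 by 0.82. The falls of CG11360, CG32000, Cals, Slip1, CG32850, CG33941, CG31998, MED26, CaMKII and bip2 were between 0.13 and 0.58 in the authors' deposited table. The muscle gene bt had -1.36 ± 0.35 and was called lower in the authors' deposited table. On other chromosomes, 9 of 14 muscle markers were lower (64.29%, range -2.15 to 0.20), against 34.9% over all tested genes of that table. CG2316 had -0.05 ± 0.05 and fuss -0.84 ± 0.40, and neither was called in the authors' deposited table.

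In the Pc mutant, the shares of chromosome 4 genes called stayed near the background of the table. In the authors' deposited table for the Pc mutant, 6 of the 78 tested chromosome 4 genes were lower (7.692%) and 1 higher (1.282%), against 6.24% lower and 3.64% higher over all 11297 tested genes. The median log2 fold change was -0.04 on chromosome 4 and 0.02 on the other arms in the authors' deposited table. With the table centred on its median, 7 chromosome 4 genes were lower and 0 higher. The median standard error of the chromosome 4 genes was 0.191 here and 0.0614 for ph RNAi, with 2 replicates of the Pc mutant and 4 of ph RNAi.

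Both Pax6 genes were among the lower genes in the Pc mutant. In the authors' deposited table for the Pc mutant, toy had -1.07 ± 0.21 (DESeq2 adjusted p = 2.2e-05) and ey -0.86 ± 0.18 (DESeq2 adjusted p = 6.3e-05). The ligand gene Ephrin had -0.30 ± 0.09 and CG1674 -0.98 ± 0.26 in the authors' deposited table. The muscle gene bt, which encodes projectin, had -1.61 ± 0.31 in the Pc mutant, and the lipoprotein gene apolpp, typical of fat body, had -1.96 ± 0.51 in the authors' deposited table. Muscle and fat body markers on other chromosomes were lower as well, 12 of 14 muscle markers (range -3.29 to -0.45) and 6 of 9 fat body markers (range -2.97 to -0.35) in the authors' deposited table. All 7 eye markers were lower too (range -1.35 to -0.66), as were 2 of 7 neuron markers (range -1.44 to 0.02) and 2 of 5 glial markers (range -1.14 to 0.17). None of the 7 haemocyte markers (range -0.26 to 0.32) and none of the 4 disc epithelium markers (range -0.14 to 0.09) was called in the authors' deposited table for the Pc mutant. Among all tested genes of that table, 6.24% were lower and 3.64% higher. The part of tissue composition in these falls was not tested.

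The only chromosome 4 gene that rose in the Pc mutant was zfh2, at 0.70 ± 0.25 (DESeq2 adjusted p = 0.0488) in the authors' deposited table. That call was lost at an adjusted p under 0.01 and after centring. The gene zfh2 overlaps Thd1, which had 0.02 ± 0.16 in the authors' deposited table. The other genes with peak clusters, sv at -0.33 ± 0.17 and Sox102F at -0.23 ± 0.13, were not called, nor was ci at -0.72 ± 0.26 (DESeq2 adjusted p = 0.0563) in the authors' deposited table. The table gave pho 0.00 ± 0.32 and fd102C -0.99 ± 0.84, again not called in the authors' deposited table.

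Set side by side, 5 of the 77 chromosome 4 genes tested in both tables were lower in both, namely ey, toy, bt, CG1674 and Ephrin. No chromosome 4 gene was called in opposite directions. As 77.92% of tested chromosome 4 genes were lower after ph RNAi, most of the 6 genes lower in the Pc mutant would be shared without any link. The matching counts over all genes were not computed, so these counts are a description. The values of ey were -2.40 for ph RNAi and -0.86 for the Pc mutant in the authors' deposited tables, and those of toy were -3.05 and -1.07. Apolpp had 0.44 ± 0.54 for ph RNAi and was not called there, against -1.96 ± 0.51 for the Pc mutant in the authors' deposited tables. No source used here states whether the 2 tables share control libraries, so the difference between them was not tested.

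**Figure D5:**
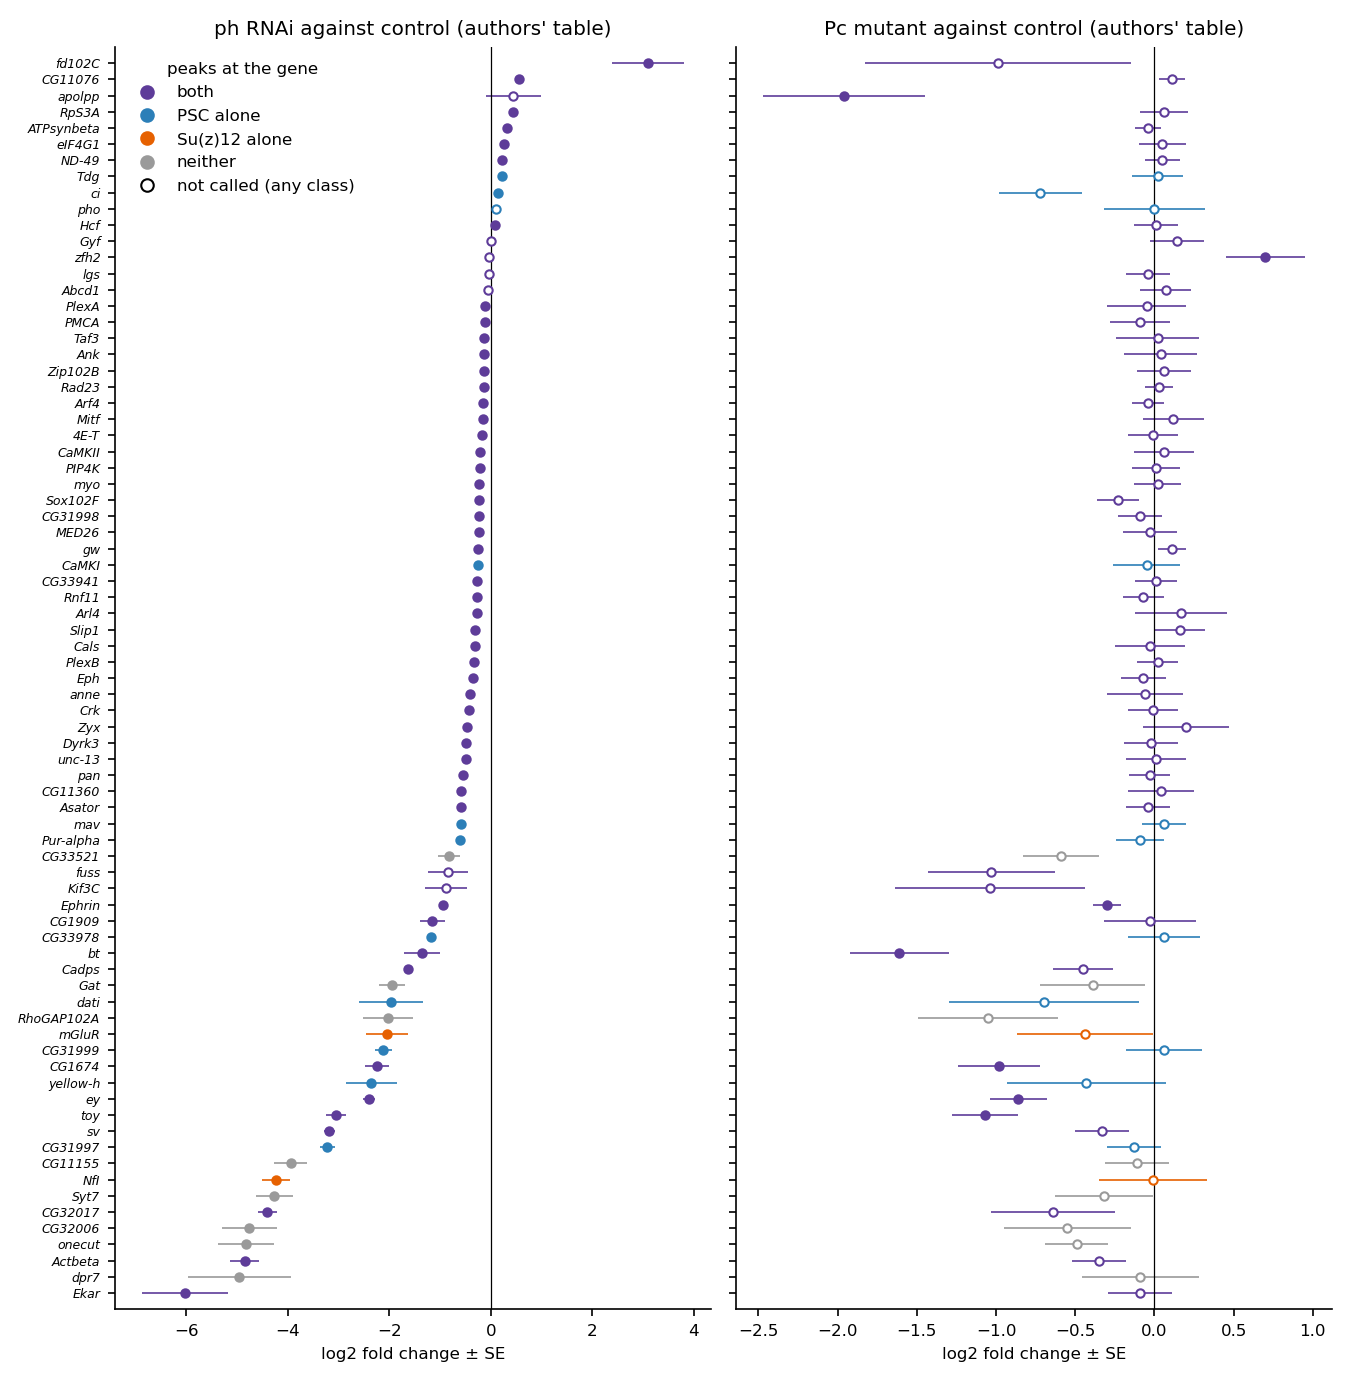
Log2 fold change with its standard error for the 77 chromosome 4 genes of the ph RNAi table (left) and the same genes in the Pc mutant (right), sorted by the left panel, from the authors' deposited tables. Colour gives the peaks at the gene, filled points were called at an adjusted p under 0.05, and the panels have different scales. On the left most points lie below 0 with fd102C alone far above it, and on the right 6 filled points lie below 0 and zfh2 above it.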

How the data were processed

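Chromosome 4 peaks and genes of eye discs were described from 6 peak lists and 2 fold change tables. Per the submitters' processing notes, the build was dm6 and the tools Bowtie2, SAMtools, MACS2 2.1.1.20160309, deepTools, STAR, HTSeq and DESeq2 1.22.1. The authors' deposited peak lists give a fold, a score and -log10 p and q values per peak, and the merged lists hold both replicates per the labels. No source used here names the control library behind the folds. The log2 fold change, its standard error, the p-value and adjusted p-value and the mean normalized count (a mean signal over libraries) are the authors', per the file headers.

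Overlap meant at least 1 bp. Intervals are exact binomial at 95% and cover counting error only, and depth is unknown. Positions came from a Release 6 RefSeq table without strand, and peak density used the last listed base of each arm. A gene counted as called when its deposited adjusted p, over the whole table, was under 0.05. Python 3.11.15, pandas 2.3.3 and scipy 1.17.1 were used, and the centred calls were tested on simulated data. No table gives values per sample, so nothing was refitted. P-values measure the spread between replicates whose independence the labels do not state.

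Every chromosome 4 gene called in either table, the transcription factor genes and the 5 strongest peaks of each protein were to be named. Members and lists were chosen with earlier results of these data known. Alternatives were stricter calls, centring, other overlaps and windows, and single replicate lists. Promoter and peak sequences were not used here.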

Additional observations from a re-analysis of the deposited data

How the results depend on the processing

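Over 11 counts and shares, 39 alternative values were computed, of which 19 stayed close to the reported value and 20 moved. Calls with an absolute log2 fold change of at least 1 left 24 chromosome 4 genes lower and 1 higher after ph RNAi, and 3 lower and 0 higher in the Pc mutant. An adjusted p under 0.01, and centring, each left 0 higher in the Pc mutant, and centring gave 55 lower and 11 higher after ph RNAi. Single replicate lists held 97 to 150 PSC and 42 to 66 Su(z)12 peaks on chromosome 4. A fold of at least 3 left 27 and 14 peaks, and a -log10 q of at least 10 left 110 and 56. The share of PSC peaks with Su(z)12 was 34.0 to 36.08% in single replicates and 32.76% with a reciprocal overlap of 50%, against 18.19% to 22.93% and 17.46% on the other arms. The share of Su(z)12 peaks with PSC was 86.36% in replicate 1 and 90.48% in replicate 2, 92.86% at a -log10 q of at least 10 and 53.77% with a reciprocal overlap of 50%, against 80.92% (replicate 1) and 67.59% (replicate 2), 80.57% and 48.45% on the other arms. With peaks found in both replicates, 36 genes had both proteins, and windows of 0 and 5000 bp gave 51 and 69. No paired analysis was possible because the fold change tables hold no value per sample and the peak counts come from no test. The causes of these shifts were not tested. Depth is unknown, and a chromosome of 80 protein-coding genes leaves as few as 2 genes in a class.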
